A study of Mus musculus with 12 samples.

Results

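Potassium channel genes, those whose mouse symbol starts with Kcn, were followed across whole-brain RNA of control, CBE-treated and CBE plus GZ-667161-treated mice. Of 78 such genes among the 16482 genes of the count table, 76 had at least 15 counts summed over the 12 samples and were taken as members. The other two, Kcne2 and Kcnk15, had 10 and 13 counts. The rule for members used the symbol and the summed count only, and was set with earlier results of these data known. All samples came from C57BL/6 mice and were homogenates of the whole brain, and 4 samples stood in each of 3 groups. The PBS group received phosphate-buffered saline and was sampled at postnatal day 40. The CBE group received conduritol B epoxide, an inhibitor of the lysosomal enzyme glucocerebrosidase that is used in mice to model neuronopathic Gaucher disease. Its replicates 2 and 3 were of postnatal day 34, and its replicates 4 and 6 of postnatal day 40. The third group received CBE and GZ-667161, an inhibitor of glucosylceramide synthase that reduces the lipid substrate, and was sampled at day 40. The CBE model is chemical and carries no mutation in the gene of the enzyme, and the labels give neither dose nor schedule.

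Potassium channels let potassium ions leave the cell along their gradient and so set the resting potential and end action potentials. Voltage-gated (Kv) pores open on depolarisation, calcium- and sodium-activated pores open when these ions enter, inward rectifiers (Kir) hold the resting potential and tandem-pore channels (K2P) carry a steady leak. Silent Kv subunits form no channel on their own and modify Kv2 pores, and auxiliary subunits bind to pores and tune their gating or transport to the membrane. In the brain most Kv genes are expressed in neurons, where they set firing rate and spike width, while Kcnj10 and Kcnj16 encode the inward rectifier of astrocytes. The members fell by their names into 25 Kv pore genes, 8 silent Kv genes, 8 calcium- or sodium-activated pore genes, 12 Kir genes, 10 K2P genes and 11 auxiliary genes. Kcnu1, a pH-sensitive pore of the BK family, was counted with the calcium- or sodium-activated pore genes. There were also 2 untranslated transcripts from the strand opposite a channel gene, Kcnd3os and Kcnmb4os2.

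The feature that unites the pore genes is the selectivity filter, a short loop that strips water from potassium ions and lets them pass in single file. In the longest annotated coding sequence of 74 members (GENCODE M21, mm10), a filter-coding stretch was found once in each of the 25 Kv, 8 silent Kv, 8 calcium- or sodium-activated and 12 Kir genes. It was found 2 times in each of the 10 K2P genes, whose subunits carry a pair of pore loops, and 0 times in each of the 11 auxiliary genes. The search allowed alternative residues at several filter positions, so these counts describe the sequences and are not a test of the classes. The stretches are shown for 5 of the pore genes that differed between groups, as 27 coding bases 5′ to 3′ with the 5 filter codons in capitals.
Kcna6: atgaccACGGTAGGTTATGGGgacatg
Kcnc1: atgacgACACTGGGCTATGGAgacatg
Kcnc2: atgactACCTTAGGTTACGGGgatatg
Kcnf1: atgaccACAGTGGGCTATGGTgacatc
Kcnk6, first pore loop: gtcaccACCGTGGGCTATGGCtacacg
Kcnk6, second pore loop: ctgtccACCATTGGCCTAGGGgactac
Kcne1l, which also differed, is auxiliary and has no such stretch.

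Total counts ran from 1753626 to 6499257 per sample, lowest in the day 34 CBE samples, and the members took 0.377% to 0.501% of the counts. Levels are given as CPM, the gene's counts relative to the library's total, scaled to library size by the TMM method. Of the members 66 had enough counts to be tested. Xist and Y-linked counts showed that the sexes were not balanced: 5 samples had 7.93 to 25.6 CPM of Xist (replicates 4 and 5 of PBS, replicates 2, 3 and 5 of the inhibitor group), and the rest, all CBE samples included, at most 0.553 CPM. Cell type markers also moved with the groups. The summed CPM of 6 neuron markers was 4830 to 5130 in PBS, 3550 to 4380 in CBE and 3980 to 4980 in CBE+GZ-667161. Of these markers 3 fell in CBE against PBS (Tubb3, Stmn2 and Slc17a7), 1 did not overlap without passing (Syt1), and Rbfox3 and Snap25 overlapped. For 6 microglia markers the sums were 351 to 360, 587 to 1050 and 560 to 731, and for 6 astrocyte markers 2320 to 2730, 3040 to 3470 and 2710 to 3020. For 6 oligodendrocyte markers they were 5520 to 6840, 2840 to 5760 and 3450 to 7940. Of the astrocyte markers 4 rose in CBE against PBS, and Gfap had the largest fold (mean 80.7 CPM in PBS, 787.9 CPM in CBE). Slc1a2, the largest term of the astrocyte sum, gave a log2 fold change of -0.20, and Gja1 gave 0.29. Both overlapped between the groups and did not pass. Nothing in the labels ties the samples to separate mice, and the p-values therefore rest on a spread that can be partly technical.

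CBE against PBS asked which transcripts accompany the block of glucocerebrosidase. In CBE 7 channel genes were lower and 2 were higher. Among the 7 were the Kv pore genes Kcnc1, Kcnc2 and Kcna6, the silent subunit gene Kcnf1 and the inward rectifier gene Kcnj12. The 2 were the K2P gene Kcnk6 and the auxiliary gene Kcne1l. These 9 of 66 tested members (13.6%) passed at an adjusted p under 0.05 (edgeR quasi-likelihood test with Benjamini-Hochberg adjustment over all genes), beside 11% of all 12623 tested genes. By direction, 10.6% of the members were lower and 3.03% higher, beside 4.04% and 6.95% of all tested genes. Of the 66 estimates 54 (81.8%) lay below 0, beside 51.8% of all genes, and their median log2 fold change was -0.24, beside -0.02. Under the other scalings tried, the median of the members ran from -0.24 to -0.23. The groups did not overlap in 8 members that were lower (the 7 and Kcnn1) and 2 that were higher, while 7.03% of all tested genes were lower without overlap and 8.6% higher. These differences ran beside the lower neuron marker sums, and the part of those in them was not tested. In a bulk homogenate, fewer cells of a type and less RNA per cell cannot be told apart.

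**Figure D1:**
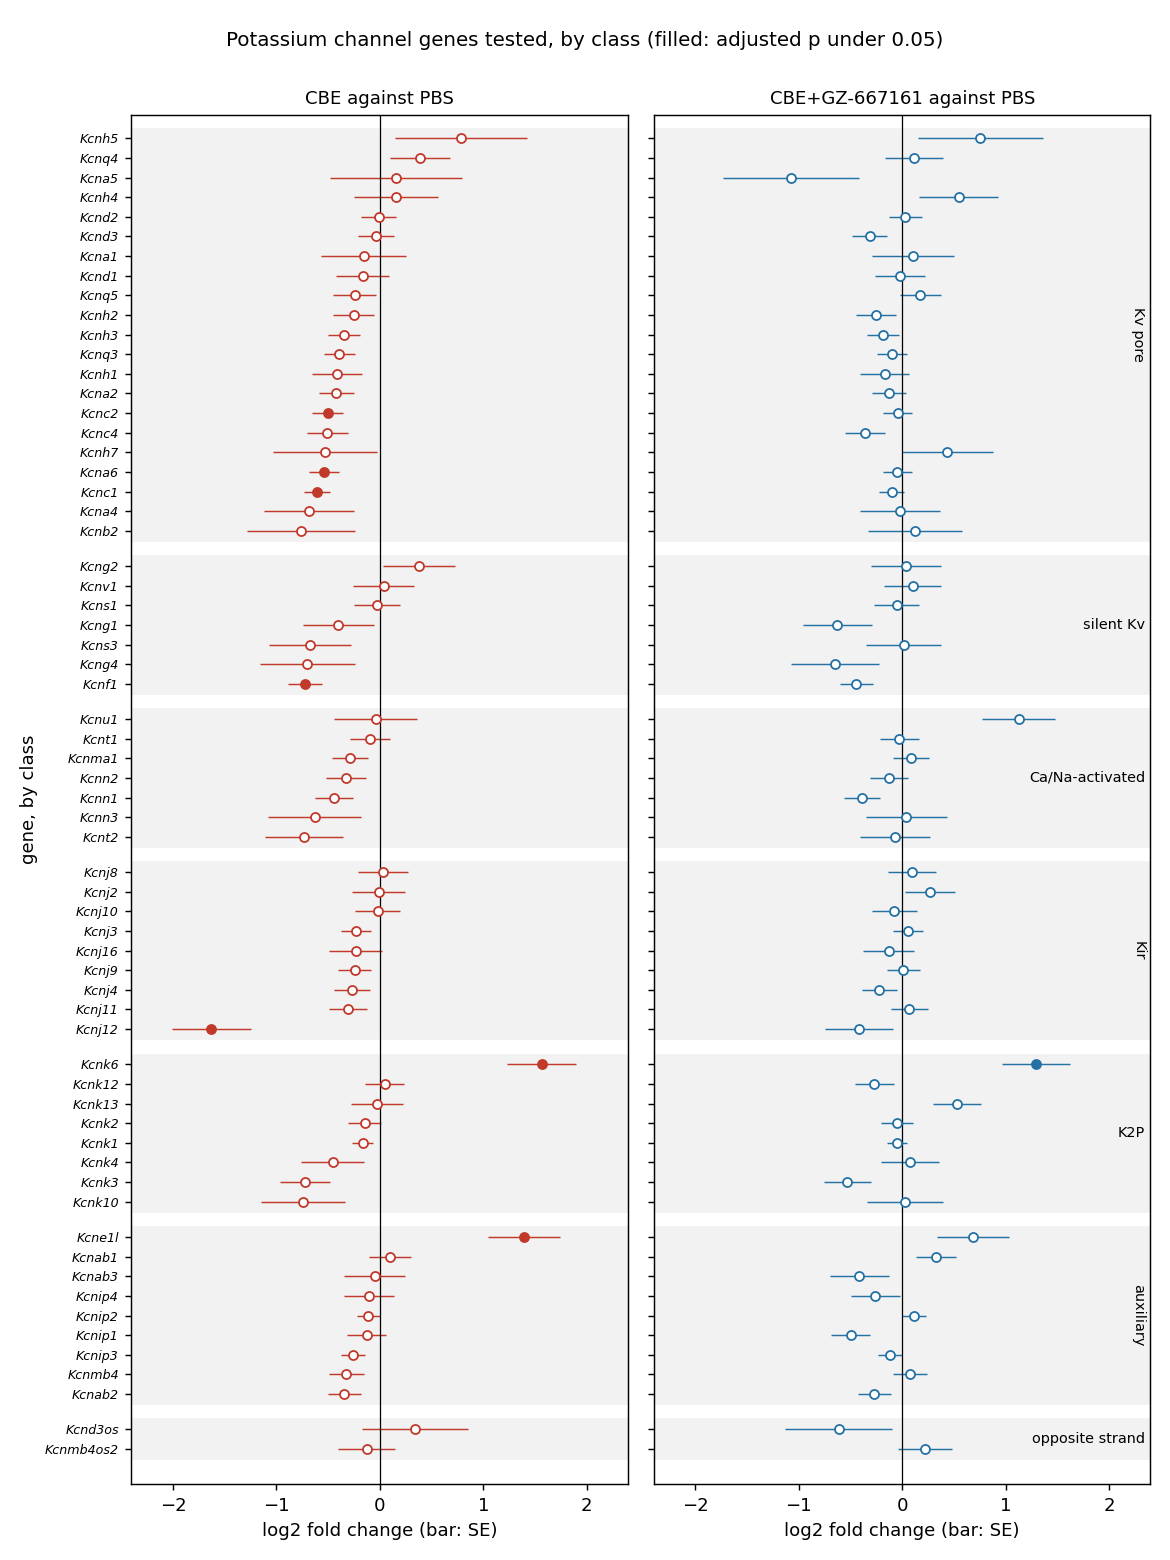
Log2 fold change (horizontal axes, bars of 1 standard error) of 63 of the tested potassium channel genes by class, for CBE over PBS (left) and CBE+GZ-667161 over PBS (right), with filled points at an adjusted p under 0.05 (edgeR). On the left 51 of 63 points lie below 0 and 7 are filled, and on the right 35 lie below 0 and Kcnk6 alone is filled.

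Among the Kv pore genes 5 of 24 tested fell and 0 rose, and the median log2 fold change was -0.36. Kcnc1 (mm10 chromosome 7, 46396497 to 46438704, plus strand) encodes Kv3.1, a fast pore that lets neurons fire at high rates. Its level was 142.9, 124.6, 160.7 and 140.3 CPM in PBS replicates 2 to 5 and 93.4, 94.5, 97.99 and 85.7 CPM in CBE replicates 2, 3, 4 and 6. All 4 CBE samples lay below all 4 PBS samples and close to each other. The log2 fold change was -0.61 ± 0.13 (SE; edgeR adjusted p = 0.00417). Kcnc2 (chromosome 10, 112271121 to 112467024, plus strand) encodes Kv3.2, a second pore of fast-spiking neurons. It stood at 78.0, 56.8, 62.2 and 66.2 CPM in PBS and at 52.0, 42.0, 50.2 and 41.5 CPM in CBE (-0.50 ± 0.15, edgeR adjusted p = 0.0378). The groups were separate, with PBS replicate 3 and CBE replicate 2 nearest to each other. Kcnc4, another Kv3 gene, gave -0.51 (edgeR adjusted p = 0.121). The sum of 6 inhibitory neuron markers was 1450 to 1720 CPM in PBS and 1220 to 1370 CPM in CBE, without overlap. Of the 6, Pvalb fell (-0.65, edgeR adjusted p = 0.0254), and the groups overlapped in Gad1, Gad2, Slc32a1, Sst and Vip (-0.39 to 0.08, adjusted p from 0.172 to 0.869). The part of these markers in the values of Kcnc1 and Kcnc2 was not tested.

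Kcna6 (chromosome 6, 126708329 to 126740674, minus strand) encodes Kv1.6, a low-threshold pore of the Kv1 group that delays firing. Its 4 PBS samples held 220.4, 221.0, 213.7 and 175.4 CPM and its CBE samples 160.95, 150.4, 131.1 and 129.2 CPM, a log2 fold change of -0.54 ± 0.14 (edgeR adjusted p = 0.0215). PBS replicate 5 was low for its group yet still above every CBE sample. The gene shares 2355 exon bases with an antisense transcript, Gm26673. The sources used here do not state a strand setting for the counting, so reads of the pair cannot be told apart. Kcna2 and Kcna1, which encode Kv1.2 and Kv1.1, the pores beside the nodes of myelinated axons, gave -0.42 ± 0.17 (adjusted p = 0.126) and -0.16 ± 0.41 (adjusted p = 0.855) in edgeR. Kcna1 spread widely within groups, from 11.7 to 42.4 CPM in PBS and from 9.40 to 28.2 CPM in CBE.

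Kcnq3, which encodes a Kv7 pore of the M-current that restrains repetitive firing, gave -0.39 (edgeR adjusted p = 0.102). Kcnd2, which encodes the A-type pore Kv4.2 of dendrites, stood at 20.99 to 25.1 CPM in PBS and 17.2 to 24.4 CPM in CBE (-0.01 ± 0.17, adjusted p = 0.978).

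Of 7 tested silent Kv genes 1 fell, Kcnf1 (chromosome 12, 17172100 to 17176888, minus strand), which encodes Kv5.1. PBS samples held 85.9, 85.2, 74.3 and 61.0 CPM and CBE samples 51.0, 47.5, 44.3 and 43.2 CPM, a log2 fold change of -0.72 ± 0.16 (edgeR adjusted p = 0.00843). The CBE samples were tightly grouped below the whole PBS range. Of the 7 estimates of this class 5 lay below 0. The calcium- and sodium-activated pore genes had 0 of 7 members called by edgeR, DESeq2 or limma-voom, and 7 of 7 estimates below 0 (median -0.32). An unadjusted edgeR p under 0.05 was seen in 1 of the 7, beside 3133 of all 12623 tested genes. Kcnma1, the pore of the BK channel, which opens on calcium and voltage together, gave -0.29 ± 0.18 (edgeR adjusted p = 0.336). Kcnn1, a small-conductance pore of the after-hyperpolarisation, stood at 24.1 to 34.8 CPM in PBS and 17.2 to 23.4 CPM in CBE and did not pass (-0.44 ± 0.18, adjusted p = 0.133). Kcnn4, the intermediate-conductance pore of immune cells, was below the filter for testing, with 11 counts in all PBS, 5 in all CBE and 27 in all CBE+GZ-667161 samples. These sums are not scaled to library totals, which were lowest in the day 34 CBE samples.

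Among 9 tested inward rectifier genes 1 fell, Kcnj12 (chromosome 11, 61022564 to 61071131, plus strand), which encodes Kir2.2. It went from 9.23, 14.8, 10.4 and 12.9 CPM in PBS to 6.44, 5.53, 3.49 and 0.989 CPM in CBE (-1.63 ± 0.38, edgeR adjusted p = 0.0104). The 4 CBE samples were all below PBS and differed widely, with CBE replicate 6 lowest. With library totals of 2995620 and 3043318 counts, the Kcnj12 values of CBE replicates 4 and 6 rest on few reads. Kcnj10, which encodes Kir4.1, the channel by which astrocytes take up potassium, stood at 55.5 to 97.5 CPM in PBS and 65.6 to 98.7 CPM in CBE (-0.02 ± 0.22, adjusted p = 0.969). Kcnj16, whose product Kir5.1 pairs with Kir4.1, gave -0.23 ± 0.26 (adjusted p = 0.624). Kcnj2, which encodes Kir2.1, and Kcnj8, the KATP pore of pericytes and smooth muscle, gave -0.01 ± 0.25 (adjusted p = 0.985) and 0.03 ± 0.24 (adjusted p = 0.958). Kcnj13, known from the choroid plexus, had 59 counts in all and was not tested. Kcnj6, a G protein-gated subunit, had 48 counts in all PBS, 6 in all CBE and 13 in all CBE+GZ-667161 samples and was not tested either. Its sums, too, are not scaled to library totals.

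Of 8 tested K2P genes 1 rose, Kcnk6 (chromosome 7, 29221926 to 29232515, minus strand), which encodes the leak channel TWIK-2 that has been studied in macrophages. It stood at 3.43, 5.51, 7.10 and 2.45 CPM in PBS and at 9.12, 16.6, 12.9 and 13.5 CPM in CBE. Every CBE sample exceeded every PBS sample, and the log2 fold change was 1.56 ± 0.34 (edgeR adjusted p = 0.0055). Kcnk13, the leak channel THIK-1 of microglia, stood at 5.84 to 7.42 CPM in PBS and 5.58 to 7.25 CPM in CBE (-0.03 ± 0.25, adjusted p = 0.962). Beside these 2 genes, 4 of the 6 microglia markers rose in CBE (Cx3cr1, Csf1r and Aif1 among them), and the part of this in the value of Kcnk6 was not tested. Kcnk1, which encodes TWIK-1 of neurons and astrocytes, gave -0.16 ± 0.10 (adjusted p = 0.337). Kcnk3, the acid-sensitive channel TASK-1, gave -0.72 ± 0.24 (adjusted p = 0.0652) with overlapping groups.

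Of 9 tested auxiliary genes 1 rose, Kcne1l (chromosome X, 142304752 to 142306294, minus strand), also named Kcne5, whose product inhibits Kv7 pores. It stood at 4.22, 7.20, 5.01 and 4.60 CPM in PBS and at 17.2, 22.7, 7.32 and 10.2 CPM in CBE (1.40 ± 0.35, edgeR adjusted p = 0.0148). The lowest CBE sample was just above the highest PBS sample, and the pair of day 34 samples was highest. The gene is X-linked, and the CBE samples differed from part of the PBS samples in Xist, as given above. Kcnab2, the Kvβ2 subunit of axonal Kv1 channels, stood at 398 to 619 CPM in PBS and 364 to 512 CPM in CBE (-0.34 ± 0.16, adjusted p = 0.19). Kcnip3, the calcium sensor DREAM that binds Kv4 pores, gave -0.26 ± 0.12 (adjusted p = 0.174). The 2 opposite-strand transcripts share 165 (Kcnd3os) and 693 (Kcnmb4os2) exon bases with their channel genes, and neither passed.

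**Figure D2:**
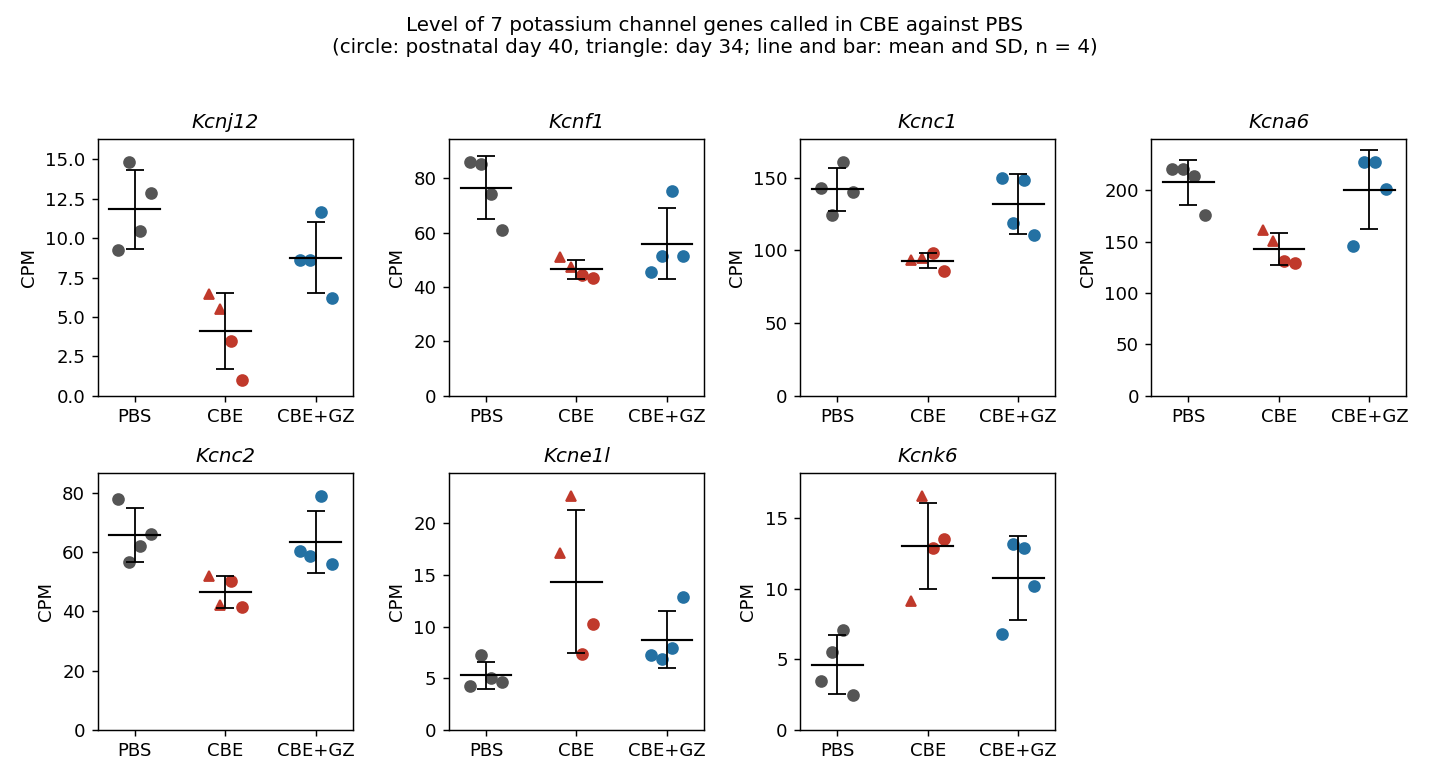
CPM (vertical axes, from 0) of 7 members that differed between CBE and PBS, 1 panel a gene, with a point for each sample (triangles for the day 34 CBE samples, circles for day 40) and a line and bar for the mean and SD of each group of 4; CBE+GZ stands for CBE+GZ-667161. The CBE points lie wholly below the PBS points in 5 panels and wholly above in those of Kcnk6 and Kcne1l.

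How far these calls rest on single libraries differed between genes. The calls of Kcnc1, Kcnf1, Kcnk6 and Kcnj12 held whichever library was left out. Without CBE replicate 3 Kcne1l did not pass (edgeR adjusted p = 0.0504), nor without both day 34 samples, which have no PBS samples of their age (0.73, adjusted p = 0.201). Kcna6 did not pass when PBS replicate 2, 3 or 4 or CBE replicate 4 or 6 was left out (edgeR adjusted p up to 0.0791). The same was true of Kcnc2 without PBS replicate 2, 4 or 5 or CBE replicate 3, 4 or 6 (up to 0.146). The number called was 5 without PBS replicate 2, PBS replicate 4 or CBE replicate 6. Among only the samples with Xist under 1 CPM, an alternative chosen after seeing the data, 3 members passed. Kcnc1 was then at -0.52 (edgeR adjusted p = 0.0785), Kcnj12 at -1.63 (0.116) and Kcne1l at 1.27 (0.185). In the authors' deposited table, 8 members had an adjusted p under 0.05 between PBS and CBE, 6 lower and 2 higher in CBE.

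Promoter sequence was at hand for 54 members (RefSeq, GRCm38.p6), 6 of the 9 called ones among them. Those of the Kv3.1 gene Kcnc1 and the silent subunit gene Kcnf1 are shown, since both fell in CBE whichever library was left out. They are windows of 300 bases that span the annotated start, 5′ to 3′ on the gene's strand, with GGGCGG or its reverse complement (the Sp1 box) in capitals.
Kcnc1, chr7:46396218-46396517, plus strand: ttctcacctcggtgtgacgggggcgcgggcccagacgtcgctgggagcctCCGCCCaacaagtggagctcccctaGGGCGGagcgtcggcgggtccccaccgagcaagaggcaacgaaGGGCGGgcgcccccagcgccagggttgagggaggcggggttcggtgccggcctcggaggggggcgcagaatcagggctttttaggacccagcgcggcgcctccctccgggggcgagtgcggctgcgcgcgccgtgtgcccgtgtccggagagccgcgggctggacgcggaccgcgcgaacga
Kcnf1, chr12:17176839-17177138, minus strand: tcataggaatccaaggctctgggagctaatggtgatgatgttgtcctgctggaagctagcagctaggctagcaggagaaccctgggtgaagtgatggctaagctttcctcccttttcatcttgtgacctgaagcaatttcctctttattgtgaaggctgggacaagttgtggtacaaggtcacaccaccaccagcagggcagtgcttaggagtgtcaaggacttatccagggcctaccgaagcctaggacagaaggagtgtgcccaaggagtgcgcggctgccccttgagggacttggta
The Kcnc1 window had a GC content of 74.7%, 41 CpG dinucleotides and 3 Sp1 boxes, and the Kcnf1 window 53% GC, 3 CpG and 0 Sp1 boxes. The median GC content was 60.3% over 77 promoters of members and 52.7% over all 32851 promoters. The Sp1 box stood in 49.4% of the member promoters and 35.7% of all promoters, and TATAAA in 5.19% and 13.6%. The cyclic AMP response element TGACGTCA stood in 0 of the 77 and in 1.79% of all, and its first part TGACG, which overlaps it, in 15.6% and 20.8%. CANNTG stood in 71.4% and 72.3%. Each motif was searched on both strands, and a match or its absence is a description of these letters alone.

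Genes that work with the channels but are not members were taken from a list of 37, of which 32 were tested. In CBE against PBS 4 fell (12.5%) and 1 rose (3.12%), beside 4.04% and 6.95% of all tested genes. Their median log2 fold change was -0.23, and 75% of the estimates lay below 0, beside -0.02 and 51.8% over all genes. The lower neuron marker sums in CBE ran beside these values too, and their part in them was not tested. All 10 genes that anchor Kv channels at nodes and synapses had estimates below 0 (median -0.36), and 2 of them fell. Dlg4, which encodes the scaffold PSD-95, went from 866, 601, 754 and 566 CPM in PBS to 512, 493, 402 and 452 CPM in CBE (-0.58 ± 0.13, edgeR adjusted p = 0.00758). Dlg2, which encodes PSD-93 of the same family, gave -0.53 ± 0.13 (edgeR adjusted p = 0.0135). Both scaffolds bind the tails of Kv1 and Kir2 channels, and in both genes the 2 groups did not overlap. Of 3 tested HCN genes, which encode the cation pores that open on hyperpolarisation, 2 fell, Hcn2 by 0.50 ± 0.13 and Hcn3 by 0.89 ± 0.22 on the log2 scale (edgeR adjusted p = 0.0188 and 0.0133). Hcn3 held 17.1, 19.3, 19.2 and 17.8 CPM in PBS and 10.2, 12.7, 8.37 and 8.90 CPM in CBE, with a clear gap between the groups.

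The gene that rose was Aqp4, the water channel that lies beside Kir4.1 on astrocyte endfeet. It was at 44.3, 41.5, 42.6 and 36.6 CPM in PBS and 93.9, 125, 50.2 and 70.5 CPM in CBE (1.03 ± 0.23, edgeR adjusted p = 0.00641). Aqp4 is also 1 of the 6 astrocyte markers, 4 of which rose in CBE. Its companions Dtna and Dag1 did not pass, nor did Kcnj10 itself. Dtna gave -0.40 ± 0.14 (edgeR adjusted p = 0.0755), with all CBE samples below all PBS samples. Dag1 gave 0.29 ± 0.13 (edgeR adjusted p = 0.183), with overlapping groups. Of 6 tested subunit genes of the sodium-potassium pump 0 passed in edgeR. An unadjusted edgeR p under 0.05 was seen in 2 of the 6, beside 3133 of all 12623 tested genes. Of 4 cotransporter genes 0 passed and 0 had an unadjusted p under 0.05, with Slc12a5, which encodes the neuronal KCC2, at -0.20 ± 0.14 (adjusted p = 0.384).

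**Figure D3:**
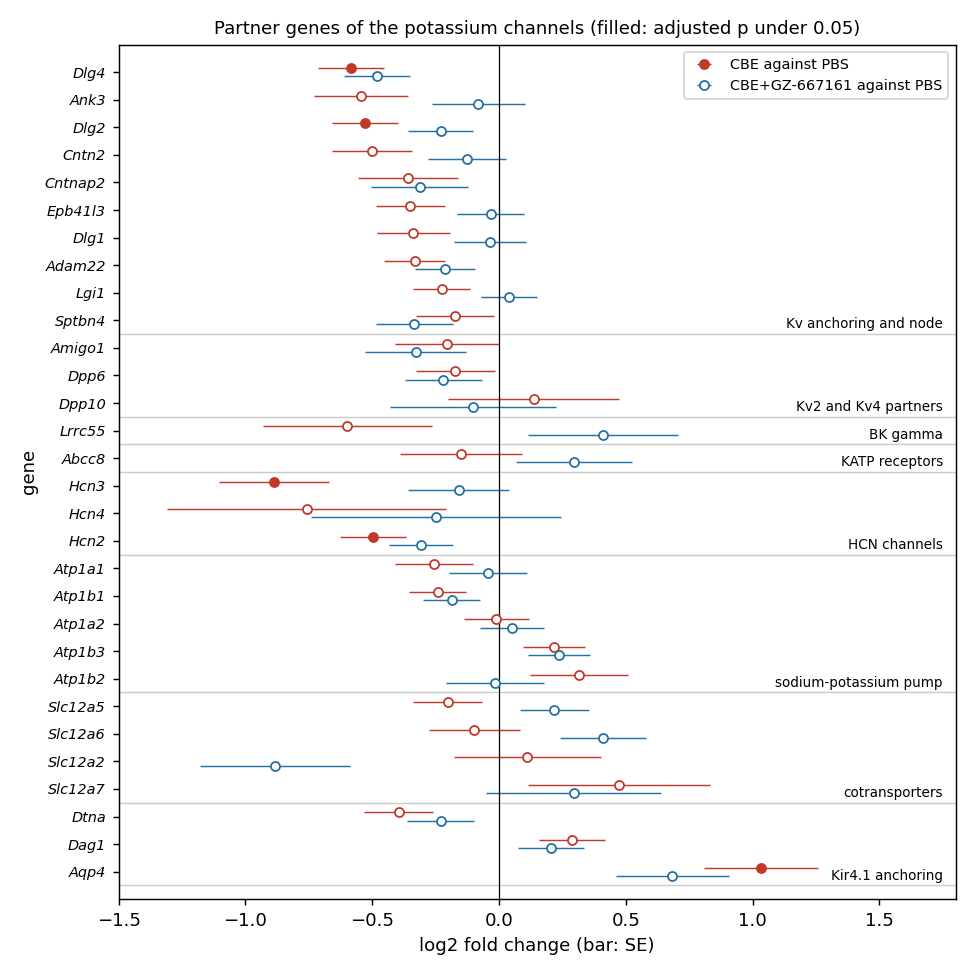
Log2 fold change (horizontal axis, bars of 1 standard error) of 30 of the tested partner genes by list, for CBE over PBS in red and CBE+GZ-667161 over PBS in blue, with filled points at an adjusted p under 0.05 (edgeR). The red points of the 10 Kv anchoring genes all lie below 0, Aqp4 is the filled point above 0, and no blue point is filled.

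CBE+GZ-667161 against PBS asked what remained when the inhibitor was given with CBE. One channel gene, Kcnk6, was above PBS. The count was 1 of 66 tested members, beside 3.45% of all tested genes (edgeR, adjusted p under 0.05). There was 1 call each in DESeq2 and limma-voom. An unadjusted edgeR p under 0.05 was seen in 9 of the 66, beside 1658 of all 12623 tested genes, a similar share. Kcnk6 stood at 6.79, 13.2, 12.9 and 10.2 CPM in CBE+GZ-667161 (1.29 ± 0.33, edgeR adjusted p = 0.0362). Replicate 2 fell just inside the PBS range, whose top was 7.10 CPM, so the groups overlapped. Leaving out replicate 2 or 5 of PBS, or replicate 3, 4 or 5 of CBE+GZ-667161, ended this call (edgeR adjusted p up to 0.128), and so did a fit of these 2 groups alone (0.0678). The microglia marker sum was 560 to 731 CPM here, above the 351 to 360 CPM of PBS, and its part in this value was not tested. The median of the members was -0.05, beside 0 for all genes, and 38 of 66 estimates lay below 0.

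Of the 7 genes that fell in CBE, 3 were within 0.11 of PBS on the log2 scale in CBE+GZ-667161. Kcna6 gave -0.05 ± 0.14, Kcnc2 -0.05 ± 0.14 and Kcnc1 -0.10 ± 0.12 (edgeR adjusted p = 0.941, 0.948 and 0.833). Kcnf1 gave -0.45 ± 0.16 (adjusted p = 0.186), with samples at 45.7, 51.5, 75.2 and 51.5 CPM. Without its high replicate 4 it passed (-0.61, edgeR adjusted p = 0.0345). That replicate was also the only CBE+GZ-667161 sample with low Xist (0.417 CPM), so leaving it out changed the balance of the sexes too. Kcnu1, a pH-sensitive pore of the BK family best known from sperm, gave 1.12 ± 0.35 (edgeR adjusted p = 0.117), and it passed without PBS replicate 3 (1.62, adjusted p = 0.0182). In 3 members all CBE+GZ-667161 samples lay below all PBS samples (among them the silent subunit genes Kcng1 and Kcng4), and in 0 above, beside 3.14% and 6.63% of all tested genes. The CBE and CBE+GZ-667161 groups were set against the same PBS samples, so these values are given side by side and the count of each is not independent of the other.

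CBE+GZ-667161 against CBE set the group with the inhibitor directly against the group without it. The groups also differed in sex and age. Xist was at 11.1 to 25.6 CPM in CBE+GZ-667161 replicates 2, 3 and 5 and at most 0.553 CPM in CBE. CBE replicates 2 and 3 were of day 34, and all CBE+GZ-667161 samples of day 40. Sex, age and inhibitor therefore cannot be fully told apart here. By edgeR 0 of 66 members passed, beside 1.28% of all tested genes, with 1 call in DESeq2 (Kcnc1) and 0 in limma-voom. An unadjusted edgeR p under 0.05 was seen in 9 of the 66, beside 2085 of all 12623 tested genes, so the members' share was not larger. The CBE samples are shared with CBE against PBS, so a low value in CBE moves these comparisons in opposite directions. Of the 66 estimates 50 lay above 0, beside 6461 of 12623 over all genes. The median of the 66 was 0.16, beside 0.01 for all genes. By class the medians were 0.20 for Kv pore, 0.06 for silent Kv, 0.37 for calcium- or sodium-activated, 0.25 for Kir, 0.15 for K2P and 0.08 for auxiliary genes. Kcnc1 held 149.9, 118.6, 148.6 and 110.5 CPM in CBE+GZ-667161, all above the CBE maximum of 97.99 CPM, and gave 0.51 ± 0.13 (edgeR adjusted p = 0.0551). It passed in DESeq2 (0.50, adjusted p = 0.0134), with library totals as the only scaling (edgeR adjusted p = 0.0486) and without CBE+GZ-667161 replicate 5 (0.0287). In the authors' deposited table it was also the 1 member with an adjusted p under 0.05 between these groups, higher in CBE+GZ-667161. The sum of neuron markers overlapped between the 2 groups, at 3550 to 4380 CPM in CBE and 3980 to 4980 CPM in CBE+GZ-667161. All 6 neuron markers had estimates above 0, with a median log2 fold change of 0.21 and 0 passing. Their part in the values of the members was not tested.

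Groups did not overlap in 4 tested members, all higher in CBE+GZ-667161, beside 4.12% of all tested genes higher and 3.96% lower without overlap. Besides Kcnc1 they were Kcnc2 at 60.4, 58.9, 79.0 and 55.9 CPM (0.46 ± 0.15, edgeR adjusted p = 0.132), Kcnk13 at 10.9, 10.997, 7.30 and 8.87 CPM (0.55 ± 0.25, adjusted p = 0.27), and Kcnu1. Kcnu1 stood at 2.68 to 3.63 CPM in CBE and at 5.65 to 7.99 CPM in CBE+GZ-667161 (1.16 ± 0.38, edgeR adjusted p = 0.136). Between CBE and PBS, Kcnk13 and Kcnu1 had given -0.03 ± 0.25 and -0.04 ± 0.40 (edgeR adjusted p = 0.962 and 0.969). Kcna6 held 145.65, 227.3, 227.2 and 201.4 CPM (0.49 ± 0.14, edgeR adjusted p = 0.0944). Its replicate 2 lay within the CBE range, and without it the gene passed (0.62, adjusted p = 0.0426). Kcnj12 held 8.59, 8.62, 11.7 and 6.21 CPM and gave 1.21 ± 0.39 (adjusted p = 0.13). Kcnk6, which rose in CBE, gave -0.27 ± 0.31 (edgeR adjusted p = 0.714), and Kcne1l -0.71 ± 0.34 (adjusted p = 0.301). Of the 32 partner genes 0 passed by edgeR in either comparison with CBE+GZ-667161. An unadjusted edgeR p under 0.05 was seen in 7 (against PBS) and 10 (against CBE) of them. Over all 12623 tested genes these counts were 1658 and 2085.

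**Figure D4:**
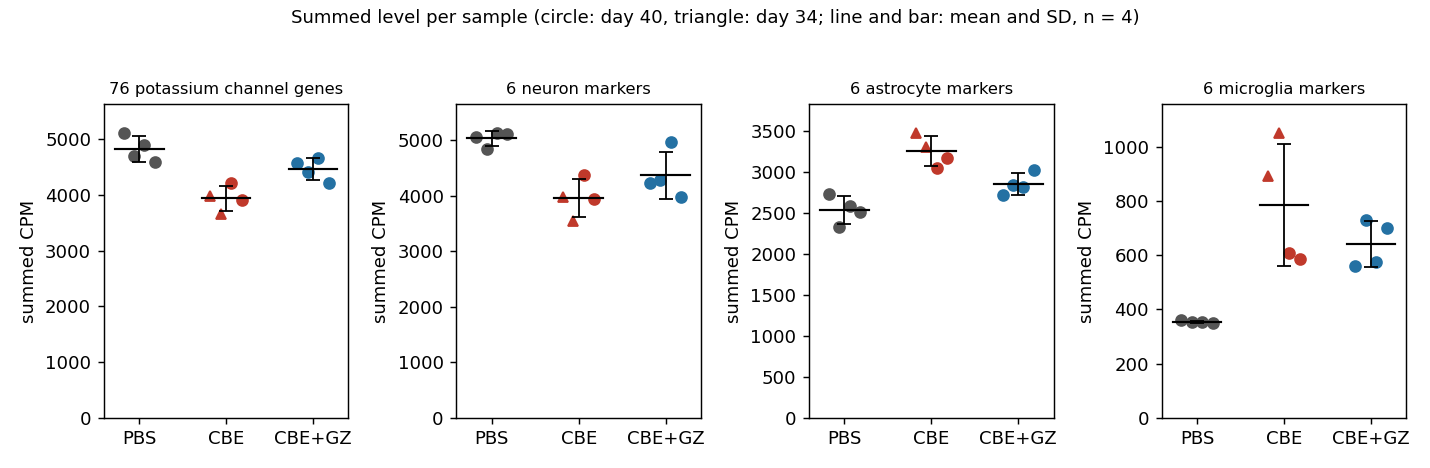
Summed CPM (vertical axes, from 0) of the 76 potassium channel genes and of 6 markers each of neurons, astrocytes and microglia, with a point for each sample (triangles for day 34, circles for day 40) and a line and bar for the mean and SD of each group of 4; CBE+GZ stands for CBE+GZ-667161. The channel sum was 4600 to 5110 in PBS, 3660 to 4210 in CBE and 4220 to 4660 in CBE+GZ-667161.

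The CBE samples were of 2 ages, and the day 34 samples had no PBS samples of their own age, so age and treatment cannot be told apart in their comparison with PBS. Between the ages 0 of 67 tested members passed by edgeR, beside 0.613% of all tested genes, with 1 call in DESeq2 and 0 in limma-voom. An unadjusted edgeR p under 0.05 was seen in 10 of the 67, beside 2021 of all 13372 tested genes, a similar share. The DESeq2 call was Kcna2 (0.72, adjusted p = 0.015). Kcna2 stood at 84.2 and 71.9 CPM in the day 34 samples and at 126 and 134 CPM in the day 40 samples, which lay near the PBS range of 127 to 154 CPM. The log2 difference of day 40 over day 34 was 0.71 ± 0.17 (edgeR adjusted p = 0.0671), and it passed without CBE+GZ-667161 replicate 2 (adjusted p = 0.0474). Kcnj12 gave -1.45 ± 0.55 (adjusted p = 0.222) and Kcne1l -1.202 ± 0.38 (adjusted p = 0.155).

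Set against PBS on their own, the day 34 samples gave 3 members lower and 1 higher. Among the 3 were Kcna2 (-0.83, edgeR adjusted p = 0.00316) and Kcnc1 (-0.58, adjusted p = 0.04999), and Kcne1l rose (1.93, adjusted p = 0.00168). Of all tested genes 0.726% were lower and 4.78% higher in that fit. The day 40 samples gave 6 lower and 1 higher, beside 5.55% and 7.67% of all tested genes. Here Kcnj12 fell by 2.42, Kcng4 by 1.72, Kcnf1 by 0.81, Kcna6 by 0.68 and Kcnc1 by 0.63 on the log2 scale (edgeR adjusted p from 0.00297 to 0.0314), and Kcnk6 rose by 1.58 (adjusted p = 0.0157). The fold of Kcnj12 rests on few reads in the day 40 CBE samples, as given above. Kcnc1 was the 1 member that passed at both ages, narrowly so at day 34. Kcnk6 had nearly the same fold at day 34 without passing (1.56 ± 0.44, edgeR adjusted p = 0.0523). Kcnj12 gave -0.98 ± 0.35 at day 34 (edgeR adjusted p = 0.145), and Kcne1l 0.73 ± 0.35 at day 40 (adjusted p = 0.201). Kcnf1 and Kcna6 did not pass at day 34 either (-0.615 and -0.395, edgeR adjusted p = 0.136 and 0.268). The microglia marker sum was 894 and 1052 CPM in the day 34 samples and 607 and 587 CPM in the day 40 samples. Without the day 34 samples the difference of Kcnj12 between CBE+GZ-667161 and CBE passed as well (2.001, edgeR adjusted p = 0.0252).

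**Figure D5:**
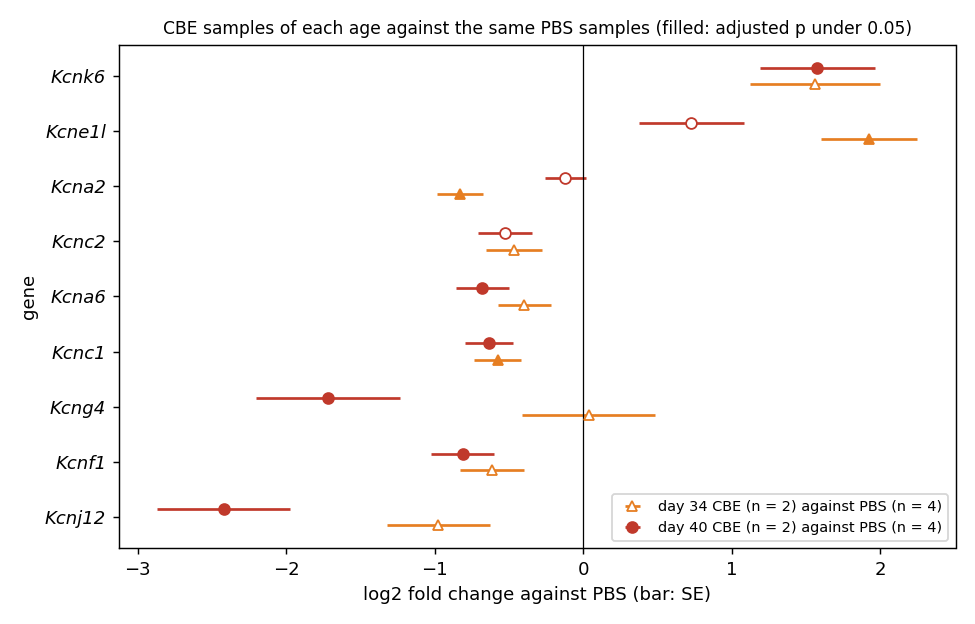
Log2 fold change against the same 4 PBS samples (horizontal axis, bars of 1 standard error) of the 2 day 34 (triangles) and the 2 day 40 CBE samples (circles), for 9 members called in CBE against PBS or at either age; filled symbols mark an adjusted p under 0.05 (edgeR). Kcnc1 is filled at both ages (-0.58 and -0.63), Kcna2 at day 34 and Kcnj12 at day 40.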

How the data were processed

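RNA of 12 whole-brain homogenates was sequenced by MARS-seq in a bulk variant that reads transcript ends, per the labels' protocols. The authors deposited raw counts per gene symbol. The tools were HISAT 0.1.6, cutadapt, DESeq2 and HTSeq on mm10, per the submitters' processing notes, which give no role or order. Use of molecular identifiers, annotation and strand setting are not given in the sources used here. In the deposited files the normalized signal was each library's raw count times a constant, and was only checked. From the authors' deposited table, log2 fold changes and adjusted p-values were copied. Low totals widen the error of low genes.

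Of 16505 entries, 23 with a date for a symbol (0.266% to 0.347% of a library's counts) were left out, and filterByExpr (minimum count 10, minimum total 15) kept 12623 genes. Counts were tested with edgeR 4.0.16 (TMM, quasi-likelihood) in one fit of 3 groups, or 4 with CBE split by age (13372 genes), with p-values adjusted over all genes at 0.05. Standard errors were computed from the test, as the absolute log2 fold change over the square root of its F statistic. The day 34 and day 40 CBE samples were each set against PBS by leaving the other two out of the 3-group fit. Members were named where they passed in any comparison or stood on a list; further members were named after their values were seen. Kcna3 of that list was not analysed here. Some genes and sequences that these rules take are not reported here; counts and medians include them. The members and lists were chosen with earlier results of these data known. Alternatives were other scalings and filters, DESeq2 1.42.0, limma-voom (limma 3.58.1), fewer samples, covariates and omission of each library. Scripts were tested on simulated data. R 4.3.3 and Python 3.11.15 were used, with GENCODE M21 and RefSeq (GRCm38.p6) for positions and sequences.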

Additional observations from a re-analysis of the deposited data

Results flagged for a closer look

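In 2 of 69 groups of 4 samples (23 named potassium channel genes in 3 groups), 1 sample stood apart from the others by more than Dixon's critical value for 4 samples allows. Chance gives about 1 in 20 groups, so fewer were seen than that. Kcna6, the Kv1.6 gene, was at 175.4 CPM in PBS replicate 5, while the other PBS samples held 213.7 to 221.0 CPM. Kcnd2, the Kv4.2 gene, was at 25.05 CPM in PBS replicate 4, while the others held 20.99 to 21.19 CPM.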

How the results depend on the processing

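For CBE against PBS, 9 members passed, and 7 to 10 did with other scalings, filters, tools, the Xist covariate, a fit of 2 groups or without the day 34 samples. With the replicate block 5 passed, without the day 40 CBE samples 4, and among only the samples with Xist under 1 CPM 3; leaving out 1 library gave 5 to 9. Fewer samples entered those last fits. Deviations of same-numbered samples from their group means had correlations of -0.078 to 0.24 (10 pairs, median 0.039). For samples of other numbers they were -0.268 to 0.416 (38 pairs, median -0.0315). The ranges overlap, so whether the numbers pair samples cannot be told from them. CBE replicate 6 has no partner in the block. For CBE+GZ-667161 against PBS, the 1 member became 0 in a fit of the 2 groups alone and 0 to 2 without 1 library. For CBE+GZ-667161 against CBE, the 0 became 1 with library totals alone, 1 in DESeq2, 1 without the day 34 CBE samples and 0 to 1 without 1 library. Between the ages, the 0 became 1 in DESeq2 and 0 to 1 without 1 library. The cause of these changes was not tested. No alternative turned the direction of a called member. The count filter left 10 of the 76 members untested, Kcnn4 and Kcnj6 among them. Low counts widen the error: for Kcnh5, at 1.76 CPM in PBS, the standard error of the day 34 log2 fold change was 0.98, beside 0.16 for Kcnc1.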
